A study of Homo sapiens with 6 samples.

Results

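The genes described here are those of the 2-oxoglutarate dioxygenases, the enzyme class that fumarate inhibits, measured as RNA in HCT15 cells. HCT15 is an established human colorectal cancer cell line. Members were all rows of the deposited expression table whose symbol starts with KDM, JMJD, ALKBH, PLOD, P4H or P3H, plus TET1, TET2, TET3, OGFOD1, OGFOD2, OGFOD3, HIF1AN, RIOX1, RIOX2, PHF8 and PHYH. ALKBH5, P4HB and KDM5D were left out by the same rule, which used names and no measured value. It gave 50 of the 12793 rows. By the labels, sgRBM15 libraries came from HCT15 cells with RBM15 knocked out by CRISPR/Cas9 (3 libraries), although RBM15 mRNA was 3.10-fold higher in them, and sgctrl libraries came from HCT15 cells with a control guide, labelled wild type (3 libraries). Both groups grew in the same RPMI-1640 medium with serum and received no other treatment that the labels name. The sources used here do not say whether the knockout cells were a single clone or a mixed population.

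A 2-oxoglutarate dioxygenase binds iron and uses molecular oxygen and 2-oxoglutarate to hydroxylate its substrate, releasing succinate and carbon dioxide. Fumarate and succinate resemble 2-oxoglutarate and compete with it, so tumours that lose fumarate hydratase or succinate dehydrogenase are known for hypermethylated DNA and histones and for a stabilised hypoxia-inducible factor. The class includes JmjC histone demethylases, the TET enzymes that oxidise methylated cytosine, AlkB enzymes that act on nucleic acids, collagen hydroxylases and hydroxylases of ribosomal and other proteins. The label of the list did not hold for every member: KDM1A and KDM1B are flavin-dependent amine oxidases that carry the KDM name, and P3H4 is a relative of the prolyl 3-hydroxylases that lacks the catalytic domain. RNA was the only measurement, so neither fumarate nor the activity of any of these enzymes was measured.

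Levels are in FPKM, which scale mapped fragments by transcript length and by library size, so they can be compared between genes. Read totals were not recovered, and the depth behind each level is unknown. Column sums lay between 402288 and 415057 FPKM. RBM15, the targeted gene, stood at 17.3, 18.5 and 18.03 FPKM in the libraries labelled sgRBM15, against 5.97, 5.89 and 5.51 FPKM in sgctrl libraries, a log2 difference of 1.48 (SE 0.049, limma adjusted p = 3.88e-06). The targeted mRNA was thus higher in the libraries labelled knockout, and every direction below rests on the labels. "Rose" and "fell" are used of the libraries labelled sgRBM15 relative to sgctrl, and only where the test passed. Of 11 markers of colonic epithelium 8 were in the table, with a summed level of 3483 to 3623 FPKM in libraries labelled sgRBM15 and 3808 to 3902 FPKM in sgctrl libraries. VIL1 averaged 3.87 ± 0.222 FPKM in libraries labelled sgRBM15 and 16.98 ± 0.168 FPKM in sgctrl libraries (SD, n = 3 each, as for every ± below). Of the 8, 6 fell and 1 rose. KRT8, which rose, and KRT18, which fell, made up most of the summed level. CDX2 and CDH17 also fell, with log2 differences of -1.06 and -1.26. Of 9 fibroblast markers only COL1A1 was among the rows analysed, at a summed level of 0.835 to 1.41 FPKM in libraries labelled sgRBM15 and 0.917 to 1.41 FPKM in sgctrl libraries. Of 6 leukocyte markers only CD68 and CD14 were, and their sum was 9.88 to 12.2 FPKM in libraries labelled sgRBM15 and 6.26 to 6.77 FPKM in sgctrl libraries, with CD68 higher and CD14 not called. Of 4 endothelial markers none was among these rows. The part of these marker differences in the results below was not tested. In bulk RNA, fewer cells of a type and less RNA per cell cannot be told apart. Since the labels do not name separate cultures, the spread behind the p-values may be technical.

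Of the 50 members, 47 averaged 1 FPKM or more across the 6 libraries and entered the test, which was limma on log2(FPKM + 1) with p-values adjusted over all 11451 tested genes by the Benjamini-Hochberg method. At an adjusted p of at most 0.05, 14 members rose and 16 fell. That is 63.8% of the tested members, beside 54.5% of all tested genes (25.3% higher and 29.2% lower), so the share of changed members was not far from the background. The groups did not overlap for 32 of the 47 tested members, beside 63% of all tested genes. The median log2 difference was -0.0017 over the members and -0.018 over all tested genes, and the median absolute difference was 0.24 and 0.21. No member that passed reached a log2 difference of 1. Such differences were also rare over all genes, at 186 of the 11451 tested. Of the 30 members that passed, 11 differed by less than 1.2-fold on that scale. Of the 47 tested members, 13 passed with an absolute log2 difference of at least 0.3 and no overlap, 6 higher and 7 lower. These conditions were met by 31% of all tested genes (12.5% higher and 18.5% lower). TET1, KDM4D and KDM8 lay below the filter and were not tested.

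**Figure D1:**
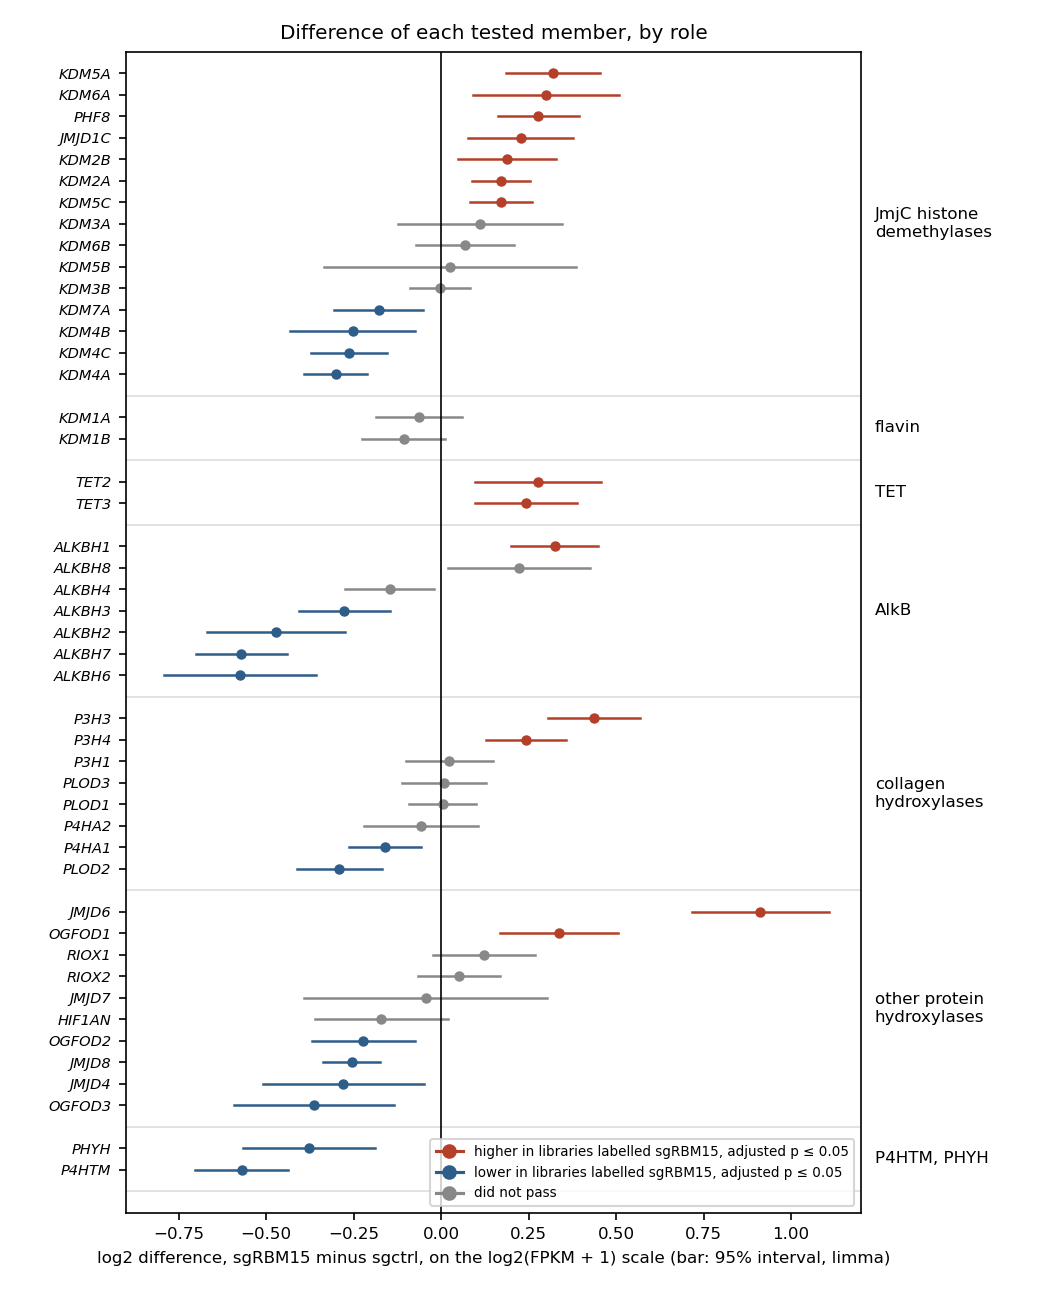
Log2 difference (horizontal axis, sgRBM15 minus sgctrl on the log2(FPKM + 1) scale) of the tested members grouped by role, with 95% intervals from limma. JMJD6 stands furthest to the right at 0.91 and the AlkB homologues ALKBH6 and ALKBH7 and the prolyl hydroxylase gene P4HTM furthest to the left at -0.57; the read-through gene JMJD7-PLA2G4B is not drawn because its interval runs from -2.05 to 1.41.

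Of 15 tested JmjC histone demethylases 7 rose and 4 fell, 73.3% beside 54.5% of all tested genes (25.3% higher and 29.2% lower). Their median log2 difference was 0.11, against -0.018 over all tested genes. KDM4A, which removes repressive and elongation-linked methyl groups from histone H3, stood at 14.8, 14.8 and 15.5 FPKM in libraries labelled sgRBM15, against 18.7, 18.5 and 18.8 FPKM in sgctrl libraries. All 3 libraries labelled sgRBM15 lay below the lowest sgctrl library. Its log2 difference was -0.30 (SE 0.038, limma adjusted p = 0.000669). The paralogue KDM4C stood at 11.5, 11.2 and 11.4 FPKM in libraries labelled sgRBM15 and at 13.2, 14.3 and 14.1 FPKM in sgctrl libraries, a difference of -0.26 (adjusted p = 0.00269). KDM4B, the third expressed paralogue, stood at 5.31, 5.66 and 6.38 FPKM in libraries labelled sgRBM15 and at 7.33, 6.55 and 7.33 FPKM in sgctrl libraries, a difference of -0.25 (adjusted p = 0.0264). All 3 tested KDM4 genes therefore fell, and the summed KDM4 level was 32.7 ± 0.894 FPKM in libraries labelled sgRBM15 and 40.1 ± 0.536 FPKM in sgctrl libraries. The KDM4B call was lost without sgRBM15 library 1 (-0.20) or 2 (-0.24) and without sgctrl library 1 (-0.23) or 3 (-0.23). KDM4D, a largely testis-expressed member, lay at 0.555 to 0.641 FPKM in libraries labelled sgRBM15 and 0.428 to 0.597 FPKM in sgctrl libraries.

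KDM5A and KDM5C, which remove a promoter-associated methyl mark from histone H3, rose. KDM5A (ENSG00000073614, chromosome 12, 280129 to 389454, minus strand, GRCh38) stood at 6.44, 7.13 and 7.09 FPKM in libraries labelled sgRBM15, against 5.46, 5.27 and 5.22 FPKM in sgctrl libraries. The groups were separate, and the log2 difference was 0.32 (SE 0.057, adjusted p = 0.00293). A trend over GC content and transcript length was also removed from each library, called GC and length adjustment below and added after the data were seen. The KDM5A difference was then 0.155 and still passed (adjusted p = 0.0431). KDM5C stood at 18.8, 19.3 and 19.1 FPKM in libraries labelled sgRBM15 and at 16.3, 17.2 and 16.95 FPKM in sgctrl libraries, a log2 difference of 0.17 (adjusted p = 0.00757). KDM5B, the paralogue linked to slow-cycling tumour cells, did not pass: it lay between 3.44 and 4.59 FPKM in libraries labelled sgRBM15 and between 2.98 and 4.72 FPKM in sgctrl libraries, and its difference of 0.02 had a 95% interval of -0.34 to 0.39.

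KDM6A (ENSG00000147050, chromosome X, 44873177 to 45112602, plus strand), whose enzyme opposes Polycomb repression, stood at 8.04, 7.79 and 9.47 FPKM in libraries labelled sgRBM15, against 6.77, 6.005 and 7.18 FPKM in sgctrl libraries. The groups did not overlap, though sgRBM15 library 3 lay well above its group, and the log2 difference was 0.30 (SE 0.088, adjusted p = 0.0244). The call was lost without sgRBM15 library 3 (0.22), sgctrl library 1 (0.31) or sgctrl library 2 (0.24), and after GC and length adjustment (0.185, adjusted p = 0.0949). KDM6B, its signal-induced paralogue, lay between 4.33 and 4.73 FPKM in libraries labelled sgRBM15 and between 4.09 and 4.43 FPKM in sgctrl libraries, and its difference of 0.07 (95% interval -0.07 to 0.21) did not pass.

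PHF8 and KDM7A, paralogues that bind a promoter-associated mark of histone H3 and remove repressive methylation, moved in opposite directions. PHF8 stood at 13.0, 12.3 and 12.2 FPKM in libraries labelled sgRBM15, against 10.5, 9.65 and 10.2 FPKM in sgctrl libraries, a log2 difference of 0.28 (SE 0.049, adjusted p = 0.00289). KDM7A stood at 4.86, 4.81 and 5.05 FPKM in libraries labelled sgRBM15, against 5.92, 5.46 and 5.64 FPKM in sgctrl libraries, a difference of -0.18 (SE 0.054, adjusted p = 0.0273). Each of these pairs of groups was separate. The KDM7A call was lost without sgRBM15 library 1 (-0.17) or 2 (-0.17), without sgctrl library 1 (-0.15) or 3 (-0.18), and also on a common library sum (-0.17) and under quantile normalization (-0.11).

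KDM2A and KDM2B, histone H3 demethylases that bind CpG islands, both rose. KDM2A, the most abundant JmjC demethylase by mean FPKM, stood at 21.7, 22.1 and 21.9 FPKM in libraries labelled sgRBM15, against 18.8, 19.5 and 19.6 FPKM in sgctrl libraries. The log2 difference was 0.17 (SE 0.035, adjusted p = 0.0056), and it was 0.049 (adjusted p = 0.26) after GC and length adjustment. KDM2B stood at 8.8, 8.46 and 9.27 FPKM in libraries labelled sgRBM15 and at 7.41, 7.34 and 8.19 FPKM in sgctrl libraries, a difference of 0.19 (adjusted p = 0.0318). The KDM2B call was lost without sgRBM15 library 1 (0.19) or 3 (0.16), without sgctrl library 1 (0.17) or 2 (0.16), and after GC and length adjustment (0.16). Among the KDM3 family, demethylases of repressive H3 methylation, JMJD1C stood at 7.66, 6.63 and 7.003 FPKM in libraries labelled sgRBM15, against 6.14, 5.69 and 5.90 FPKM in sgctrl libraries, and rose by 0.23 (adjusted p = 0.0199). That call was lost without sgRBM15 library 1 (0.18), sgctrl library 2 (0.205) or sgctrl library 3 (0.23), and after that adjustment (0.086). KDM3A, a known target of hypoxia-inducible factors, had a difference of 0.11 (95% interval -0.12 to 0.35), with sgRBM15 library 3 at 12.4 FPKM and the other 5 libraries between 9.24 and 9.80 FPKM. KDM3B did not pass, at 20.2 ± 0.331 FPKM in libraries labelled sgRBM15 and 20.2 ± 0.425 FPKM in sgctrl libraries (difference -0.0017, 95% interval -0.09 to 0.08), but fell by 0.13 (adjusted p = 0.0221) after that adjustment.

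Neither flavin-dependent demethylase passed. KDM1A, the most abundant of the 50 genes, stood at 60.5, 62.8 and 59.4 FPKM in libraries labelled sgRBM15, against 61.5, 60.9 and 68.8 FPKM in sgctrl libraries. The groups overlapped, and the log2 difference was -0.06 (SE 0.052, 95% interval -0.19 to 0.06, adjusted p = 0.341). KDM1B stood at 6.61, 7.03 and 7.22 FPKM in libraries labelled sgRBM15 and at 7.53, 7.67 and 7.48 FPKM in sgctrl libraries, which did not overlap, but its difference of -0.11 (SE 0.05, adjusted p = 0.111) did not pass.

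Both expressed TET genes rose. TET3 stood at 5.64, 4.97 and 5.40 FPKM in libraries labelled sgRBM15, against 4.31, 4.24 and 4.49 FPKM in sgctrl libraries, and TET2, often mutated in blood cancers, stood at 3.03, 2.93 and 3.499 FPKM in libraries labelled sgRBM15, against 2.30, 2.47 and 2.49 FPKM in sgctrl libraries. All libraries labelled sgRBM15 exceeded all sgctrl libraries for both genes. The log2 differences were 0.24 for TET3 (SE 0.062, adjusted p = 0.0135) and 0.28 for TET2 (SE 0.076, adjusted p = 0.0191). Both transcripts are long, and after GC and length adjustment neither passed (0.10 for TET3, adjusted p = 0.201, and 0.11 for TET2, adjusted p = 0.197). The TET2 call was also lost without sgRBM15 library 3 (0.22) or sgctrl library 1 (0.25). TET1 was barely detected, at 0.122, 0.138 and 0.134 FPKM in libraries labelled sgRBM15 and 0.109, 0.165 and 0.162 FPKM in sgctrl libraries.

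**Figure D2:**
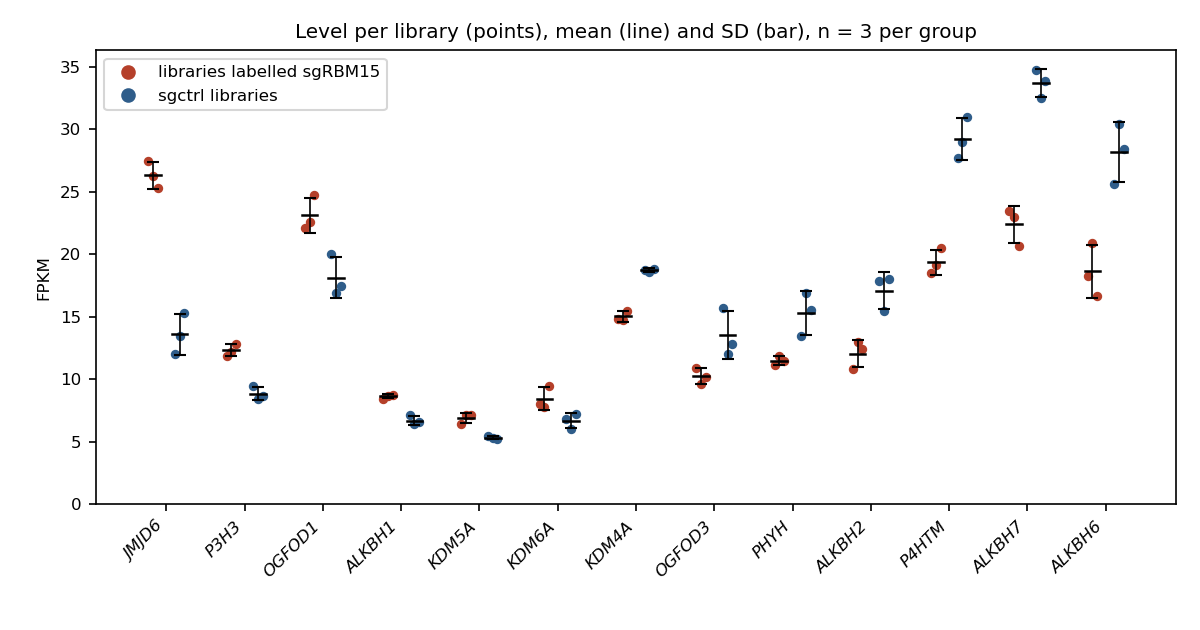
FPKM per library (points) with the mean (line) and SD (bar) of 3 libraries for the 13 members that passed with an absolute log2 difference of at least 0.3 and no overlap, ordered from the largest increase to the largest decrease, with libraries labelled sgRBM15 left of sgctrl libraries. JMJD6 lies at 25.3 to 27.4 FPKM in libraries labelled sgRBM15 and 11.97 to 15.3 FPKM in sgctrl libraries, and the 3 rightmost genes lie at 16.7 to 23.5 FPKM in libraries labelled sgRBM15 and 25.6 to 34.7 FPKM in sgctrl libraries.

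The AlkB homologues held 3 of the 4 largest decreases in the list. Of 7 tested, 4 fell and 1 rose, 71.4% beside 54.5% of all tested genes (29.2% lower), with a median log2 difference of -0.28. Their summed level was 86.0, 90.6 and 83.1 FPKM in libraries labelled sgRBM15, against 115, 112 and 114 FPKM in sgctrl libraries. ALKBH5, left out by the rule, is not in these counts or sums, and it went the other way. It averaged 37.2 ± 1.5 FPKM in libraries labelled sgRBM15 and 29.7 ± 0.767 FPKM in sgctrl libraries, and rose (0.31, adjusted p = 0.000816). ALKBH5 rose by fewer FPKM than the sum of the 7 members fell. The decrease is thus one of the summed level and not of every AlkB gene. ALKBH6 (ENSG00000239382, chromosome 19, 36009120 to 36014239, minus strand) stood at 18.3, 20.9 and 16.7 FPKM in libraries labelled sgRBM15, against 25.6, 30.4 and 28.4 FPKM in sgctrl libraries. Its log2 difference was -0.57 (SE 0.092, adjusted p = 0.00184). ALKBH7 (ENSG00000125652, chromosome 19, 6372433 to 6375251, plus strand), a mitochondrial protein linked to programmed necrosis and fatty acid metabolism, stood at 23.5, 23.0 and 20.7 FPKM in libraries labelled sgRBM15, against 34.7, 32.5 and 33.9 FPKM in sgctrl libraries. Its difference was -0.57 (SE 0.055, adjusted p = 0.00021). Neither gene overlapped between the groups, and for ALKBH7 the gap between them exceeded the range within either. After GC and length adjustment the difference was -0.39 for ALKBH6 and -0.38 for ALKBH7, and both passed.

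The DNA alkylation repair genes ALKBH2 and ALKBH3, whose enzymes strip methyl groups from damaged bases, fell as well. ALKBH2 (ENSG00000189046, chromosome 12, 109088188 to 109093631, minus strand) stood at 10.8, 12.9 and 12.4 FPKM in libraries labelled sgRBM15, against 17.8, 15.4 and 18.02 FPKM in sgctrl libraries, a log2 difference of -0.47 (SE 0.083, adjusted p = 0.00285). ALKBH3 stood at 14.8, 14.8 and 14.6 FPKM in libraries labelled sgRBM15, against 19.6, 17.5 and 17.2 FPKM in sgctrl libraries, a difference of -0.28 (SE 0.055, adjusted p = 0.00487). ALKBH1, which acts on methylated transfer RNA, went the other way. It stood at 8.43, 8.67 and 8.74 FPKM in libraries labelled sgRBM15, against 7.09, 6.42 and 6.53 FPKM in sgctrl libraries, a difference of 0.32 (SE 0.053, adjusted p = 0.00196). The calls of ALKBH1, ALKBH2, ALKBH3, ALKBH6 and ALKBH7 held under all 15 alternatives, among them leaving out each library. ALKBH8, a methyltransferase and hydroxylase of the transfer RNA wobble base, averaged 4.60 ± 0.124 FPKM in libraries labelled sgRBM15 and 3.82 ± 0.509 FPKM in sgctrl libraries. It did not pass (0.22, adjusted p = 0.0632), but did without sgctrl library 1 (0.29, adjusted p = 0.0358). It also passed under median centring of log2 values and under quantile normalization. ALKBH4 averaged 5.53 ± 0.266 FPKM in libraries labelled sgRBM15 and 6.22 ± 0.158 FPKM in sgctrl libraries. It did not pass (-0.15, adjusted p = 0.0548), but did without sgRBM15 library 2 (-0.18, adjusted p = 0.0493) and with no variance trend. Neither ALKBH4 nor ALKBH8 overlapped between the groups.

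Among the collagen hydroxylases, which modify procollagen in the endoplasmic reticulum, the 2 most abundant enzymes, PLOD3 and PLOD1, did not pass. PLOD3, a lysyl hydroxylase that also glycosylates collagen, stood at 44.4, 44.3 and 39.4 FPKM in libraries labelled sgRBM15 and at 41.8, 43.0 and 42.3 FPKM in sgctrl libraries. The groups overlapped, and the log2 difference of 0.01 (SE 0.051, adjusted p = 0.899) had a 95% interval of -0.11 to 0.13. PLOD1 had a difference of 0.0048 (95% interval -0.09 to 0.10), P4HA2 of -0.06 (-0.22 to 0.11) and P3H1 of 0.02 (-0.10 to 0.15). Of 8 tested genes, 2 rose and 2 fell, 50% beside 54.5% of all tested genes, and their summed level was 198 to 201 FPKM in libraries labelled sgRBM15 and 200.2 to 204 FPKM in sgctrl libraries.

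PLOD2, the lysyl hydroxylase of collagen telopeptides, stood at 14.6, 14.5 and 16.3 FPKM in libraries labelled sgRBM15, against 19.1, 18.4 and 18.7 FPKM in sgctrl libraries. The log2 difference was -0.29 (SE 0.052, adjusted p = 0.00293), and the call held under every alternative run. P4HA1, a catalytic subunit of collagen prolyl 4-hydroxylase, stood at 33.0, 32.0 and 33.6 FPKM in libraries labelled sgRBM15, against 37.4, 35.0 and 38.2 FPKM in sgctrl libraries, a difference of -0.16 (adjusted p = 0.0176). The P4HA1 call was lost without sgRBM15 library 2 (-0.14), sgctrl library 1 (-0.15) or sgctrl library 3 (-0.13). P3H3, a partner of lysyl hydroxylation, rose most in this group. It stood at 11.9, 12.2 and 12.8 FPKM in libraries labelled sgRBM15, against 9.43, 8.43 and 8.63 FPKM in sgctrl libraries, a difference of 0.44 (SE 0.056, adjusted p = 0.000708). P3H4, the non-catalytic relative, stood at 15.7, 16.4 and 15.2 FPKM in libraries labelled sgRBM15, against 13.7, 12.7 and 13.03 FPKM in sgctrl libraries, a difference of 0.24 (adjusted p = 0.00479). The differences of both were larger after GC and length adjustment (0.62 for P3H3 and 0.36 for P3H4).

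PLOD2, P4HA1, KDM4B and KDM4C are 4 of 9 dioxygenase genes listed as targets of hypoxia-inducible factors, the transcription factors that themselves are controlled by prolyl hydroxylases. These 4 fell, the other 5 (KDM3A, P4HA2, PLOD1, EGLN1 and EGLN3) did not pass, and none rose. That is 44.4% of the list, all lower, where 29.2% of all tested genes were lower and 25.3% higher (54.5% in either direction). The median log2 difference of the list was -0.06. The bases before the RefSeq start (GRCh38.p14) of the 4 genes that fell are shown because they hold the core of the element these factors bind. Each line is 250 bases, 5′ to 3′ on the strand of the gene, and capitals mark ACGTG or GCGTG on either strand; the E-box CACGTG holds ACGTG on both strands.
P4HA1 (chr10:73096867-73097116, minus strand): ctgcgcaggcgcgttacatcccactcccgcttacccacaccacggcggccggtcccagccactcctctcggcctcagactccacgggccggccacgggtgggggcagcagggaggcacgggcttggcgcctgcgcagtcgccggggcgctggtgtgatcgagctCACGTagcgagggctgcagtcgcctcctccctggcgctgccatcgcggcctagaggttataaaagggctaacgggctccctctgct
PLOD2 (chr3:146161185-146161434, minus strand): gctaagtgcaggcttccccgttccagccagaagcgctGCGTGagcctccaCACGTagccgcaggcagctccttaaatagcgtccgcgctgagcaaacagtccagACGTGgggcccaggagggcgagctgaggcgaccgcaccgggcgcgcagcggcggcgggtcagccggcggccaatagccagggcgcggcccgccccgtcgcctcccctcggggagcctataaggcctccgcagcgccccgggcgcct
KDM4B (chr19:4968863-4969112, plus strand): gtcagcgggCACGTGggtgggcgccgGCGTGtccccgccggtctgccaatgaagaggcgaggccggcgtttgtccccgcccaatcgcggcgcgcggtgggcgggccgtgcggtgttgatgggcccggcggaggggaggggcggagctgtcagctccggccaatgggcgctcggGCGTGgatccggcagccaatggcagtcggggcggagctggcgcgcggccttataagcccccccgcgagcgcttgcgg
KDM4C (chr9:6757723-6757972, plus strand): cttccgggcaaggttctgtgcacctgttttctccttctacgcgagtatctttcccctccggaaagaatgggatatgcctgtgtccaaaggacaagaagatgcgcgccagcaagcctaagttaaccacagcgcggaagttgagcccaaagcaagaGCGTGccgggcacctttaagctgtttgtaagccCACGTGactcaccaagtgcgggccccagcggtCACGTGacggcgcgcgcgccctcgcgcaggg
The motif was found before 8 of the 10 RefSeq starts of the 9 hypoxia targets, and before 43.2% of all 35116 RefSeq starts and 56.4% of the 13305 starts of tested genes. For all members, 39 of 64 starts had a match, with 46 of the 50 genes found in the RefSeq table; JMJD6, P3H4, RIOX1 and RIOX2 had no entry. Among listed genes that did not pass, KDM3A had 1 GCGTG before each of its 2 starts, PLOD1 had 2 and P4HA2 had no match. A match is a description of the letters and not of a bound site, and the lack of one says only that the letters are not in this window.

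P4HTM (ENSG00000178467, chromosome 3, 48989886 to 49007154, plus strand), a transmembrane prolyl hydroxylase of the endoplasmic reticulum that is not a collagen enzyme, had one of the largest decreases. It stood at 18.5, 19.1 and 20.5 FPKM in libraries labelled sgRBM15, against 27.7, 28.96 and 30.98 FPKM in sgctrl libraries. The highest of the libraries labelled sgRBM15 lay far below the lowest sgctrl library, and the log2 difference was -0.57 (SE 0.056, adjusted p = 0.000228). It was -0.40 after GC and length adjustment and passed under every alternative run. Exons of P4HTM and of WDR6 share 93 bases on the same strand, 1.22% of P4HTM exonic bases, and WDR6 had a difference of -0.17.

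JMJD6 (ENSG00000070495, chromosome 17, 76712832 to 76726799, minus strand), a nuclear lysyl hydroxylase of splicing factors, had the largest difference of all members. It stood at 27.4, 26.3 and 25.3 FPKM in libraries labelled sgRBM15, against 11.97, 13.5 and 15.3 FPKM in sgctrl libraries. No library came near the other group, and the ratio of means was 1.94. The log2 difference was 0.91 (SE 0.082, adjusted p = 0.000161), and it lay between 0.803 and 0.995 in the alternatives and passed in each. OGFOD1, a prolyl hydroxylase of the small ribosomal subunit protein RPS23, rose too. Its level was 22.1, 22.6 and 24.7 FPKM in libraries labelled sgRBM15, against 19.97, 16.9 and 17.45 FPKM in sgctrl libraries, a difference of 0.34 (SE 0.072, adjusted p = 0.00643).

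Of 10 tested genes for hydroxylases of ribosomal, translational and other proteins, JMJD6 and OGFOD1 included, 2 rose and 4 fell, 60% beside 54.5% of all tested genes, with a median log2 difference of -0.11. OGFOD3 stood at 10.9, 9.63 and 10.2 FPKM in libraries labelled sgRBM15, against 15.7, 12.02 and 12.8 FPKM in sgctrl libraries. Its difference of -0.36 (SE 0.097, adjusted p = 0.0169) was -0.32 without sgRBM15 library 2, where the call was lost (adjusted p = 0.0538). JMJD8, a protein of the endoplasmic reticulum lumen and the most abundant gene of this role, stood at 25.7, 25.5 and 25.1 FPKM in libraries labelled sgRBM15, against 31.04, 29.7 and 30.9 FPKM in sgctrl libraries. Its difference was -0.26 (SE 0.034, adjusted p = 0.000891), and -0.081 after GC and length adjustment (adjusted p = 0.0886). OGFOD2 had 11.3 ± 0.343 FPKM in libraries labelled sgRBM15 and 13.4 ± 1.06 FPKM in sgctrl libraries. Its difference of -0.22 (adjusted p = 0.0201) did not pass without sgRBM15 library 2 (-0.20), sgctrl library 2 (-0.22) or sgctrl library 3 (-0.17), nor after that adjustment (-0.049). JMJD4, a hydroxylase of the translation termination factor eRF1, had 3.92 ± 0.324 FPKM in libraries labelled sgRBM15 and 4.98 ± 0.67 FPKM in sgctrl libraries, which overlapped. Its call (-0.28, adjusted p = 0.0452) was lost without sgRBM15 library 1 (-0.25) or 3 (-0.25), without sgctrl library 1 (-0.24) or 3 (-0.22), and in 5 other alternatives.

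Of the 50 members, 16 share exonic bases with another gene, which makes their values less certain, since the sources used here do not say whether reads were counted by strand. JMJD8 shares 37.4% of its exonic bases with STUB1, OGFOD2 35.9% with ABCB9 and JMJD4 53.8% with SNAP47, each on the opposite strand. None of these 3 neighbours passed (-0.09 for STUB1, -0.04 for ABCB9 and -0.002 for SNAP47). JMJD7 shares 80.1% of its exonic bases with the read-through gene JMJD7-PLA2G4B on the same strand. JMJD7-PLA2G4B was listed at 0, 1.79 and 2.39 FPKM in libraries labelled sgRBM15 and at 1.77, 0 and 5.69 FPKM in sgctrl libraries. Its level thus varied from library to library within both groups. It also shares 42.7% of its exonic bases with PLA2G4B on the same strand, and how reads were divided among these genes was not tested. JMJD7 itself did not pass (-0.04, 95% interval -0.39 to 0.30). RIOX2 shares 27.6% with CRYBG3 (0.40) and ALKBH4 25.3% with ORAI2 (-0.05), while the remaining members with an overlap, the read-through gene aside, share at most 7.56%.

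The ribosomal oxygenases RIOX1 and RIOX2, which hydroxylate histidines of large-subunit proteins, did not pass. RIOX2 had 17.6 ± 0.241 FPKM in libraries labelled sgRBM15 and 16.96 ± 1.01 FPKM in sgctrl libraries, and RIOX1 had 6.84 ± 0.273 FPKM in libraries labelled sgRBM15 and 6.21 ± 0.429 FPKM in sgctrl libraries. The RIOX1 difference of 0.12 passed only after GC and length adjustment (0.205, adjusted p = 0.0234). HIF1AN, the asparaginyl hydroxylase that keeps hypoxia-inducible factors from their coactivators, stood at 5.54, 5.18 and 6.28 FPKM in libraries labelled sgRBM15, against 6.97, 6.01 and 6.51 FPKM in sgctrl libraries. The groups overlapped through sgRBM15 library 3, and the difference of -0.17 (SE 0.08, 95% interval -0.36 to 0.02, adjusted p = 0.112) did not pass. It did pass without that library (-0.24, adjusted p = 0.0426) and after GC and length adjustment (-0.34, adjusted p = 0.00737). KDM8 lay at 0.592 to 0.796 FPKM in libraries labelled sgRBM15 and 0.525 to 0.806 FPKM in sgctrl libraries. PHYH, the peroxisomal enzyme that starts the breakdown of phytanic acid, fell. It stood at 11.1, 11.9 and 11.4 FPKM in libraries labelled sgRBM15, against 13.4, 16.9 and 15.5 FPKM in sgctrl libraries, a difference of -0.38 (SE 0.08, adjusted p = 0.00636).

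Because FPKM are set per length, the share of each paralogue among the members of its family was computed within each library, which no rescaling of a library can change. PHF8 held 72.7%, 71.9% and 70.8% of the summed FPKM of PHF8 and KDM7A in libraries labelled sgRBM15. Its share was 64.0%, 63.8% and 64.4% in sgctrl libraries, and KDM7A held the rest. PHF2, also of the KDM7 family but outside the rule, was not in that sum. It averaged 9.49 ± 0.381 FPKM in libraries labelled sgRBM15 and 10.5 ± 0.246 FPKM in sgctrl libraries. OGFOD1 held 51.8% ± 1.79 of the OGFOD sum in libraries labelled sgRBM15 and 40.2% ± 1.31 in sgctrl libraries, while the sum itself overlapped between groups (43.1 to 46.4 FPKM in libraries labelled sgRBM15 and 42.3 to 48.0 FPKM in sgctrl libraries). The PHF8 and OGFOD1 shares did not overlap between the groups, nor did that of OGFOD3, but that of OGFOD2 did. P3H3 held 32.4% ± 1.41 of the prolyl 3-hydroxylase sum in libraries labelled sgRBM15 and 27.8% ± 1.2 in sgctrl libraries. PLOD2 held 15.4% ± 1.37 of the lysyl hydroxylase sum in libraries labelled sgRBM15 and 18.4% ± 0.65 in sgctrl libraries. ALKBH1 held 9.97% ± 0.5 of the AlkB sum, which leaves out ALKBH5, in libraries labelled sgRBM15 and 5.87% ± 0.251 in sgctrl libraries. The shares of these 3 genes did not overlap between groups, nor did those of P3H1, ALKBH4, ALKBH7 and ALKBH8. Those of P3H4, PLOD1, PLOD3, ALKBH2, ALKBH3 and ALKBH6 did overlap. In the KDM4 family the sum was lower while the shares were close: KDM4A held 45.8% ± 0.0448 in libraries labelled sgRBM15 and 46.6% ± 0.408 in sgctrl libraries, without overlap, and KDM4C held 34.7% ± 1.09 in libraries labelled sgRBM15 and 34.5% ± 1.43 in sgctrl libraries. The TET shares overlapped between groups, with TET3 at 61.9% ± 2.21 of the sum in libraries labelled sgRBM15 and 62.9% ± 1.21 in sgctrl libraries. These shares were described and not tested.

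**Figure D3:**
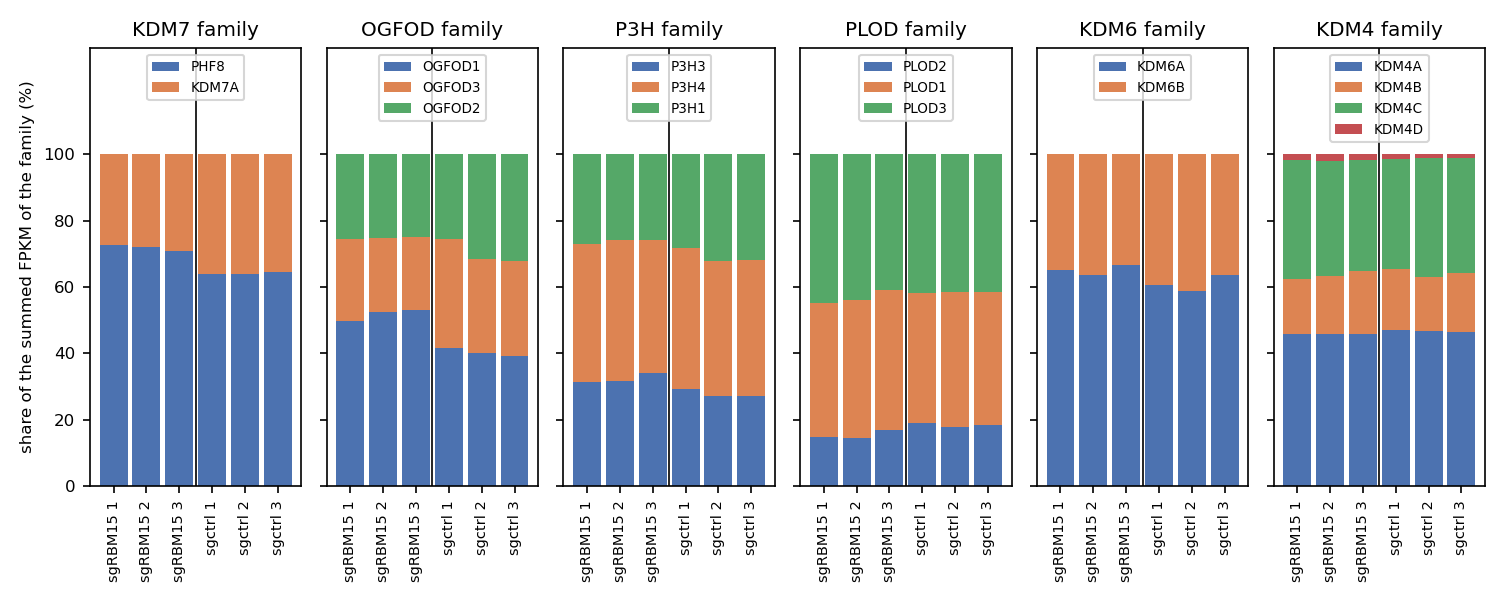
Share of the summed FPKM of 6 paralogue families held by each member (vertical axis, percent) in each library, with the 3 libraries labelled sgRBM15 left of the line and the 3 sgctrl libraries right of it. PHF8 and OGFOD1 take a larger share in each library labelled sgRBM15, PLOD2 a smaller one, and the KDM4 shares are nearly level. The KDM7 panel leaves out PHF2, which is outside the rule.

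Members that rose and members that fell differed in transcript length, a property the rule did not use. The principal GENCODE transcript had a median of 5734.5 bases for the 14 members that rose and 2361 bases for the 16 that fell. Over all tested genes with an annotated transcript the medians were 3779 bases for those that rose and 2568 bases for those that fell. All tested genes were divided by length into 4 bins of near equal size. Of 7 members in the shortest bin (up to 1991 bases) 0 rose and 6 fell, where 16.5% of all tested genes in that bin rose and 39.6% fell. Of 16 members in the longest bin (from 4773 bases) 9 rose and 2 fell, where 34.7% of all tested genes rose and 16.95% fell. Across the 47 tested members, which come from the same 6 libraries, the log2 difference had a Pearson correlation of 0.49 with log2 length and of -0.28 with GC content. Across 11160 tested genes these were 0.20 and -0.20. After GC and length adjustment 9 members rose and 15 fell. TET2, TET3, KDM6A, JMJD1C, KDM2A and KDM2B were the rises that no longer passed, and OGFOD2, JMJD8 and JMJD4 the falls. JMJD6, P3H3, ALKBH1, OGFOD1, the KDM4 genes, PLOD2, P4HTM, PHYH and the 4 AlkB genes that fell passed with and without that adjustment.

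**Figure D4:**
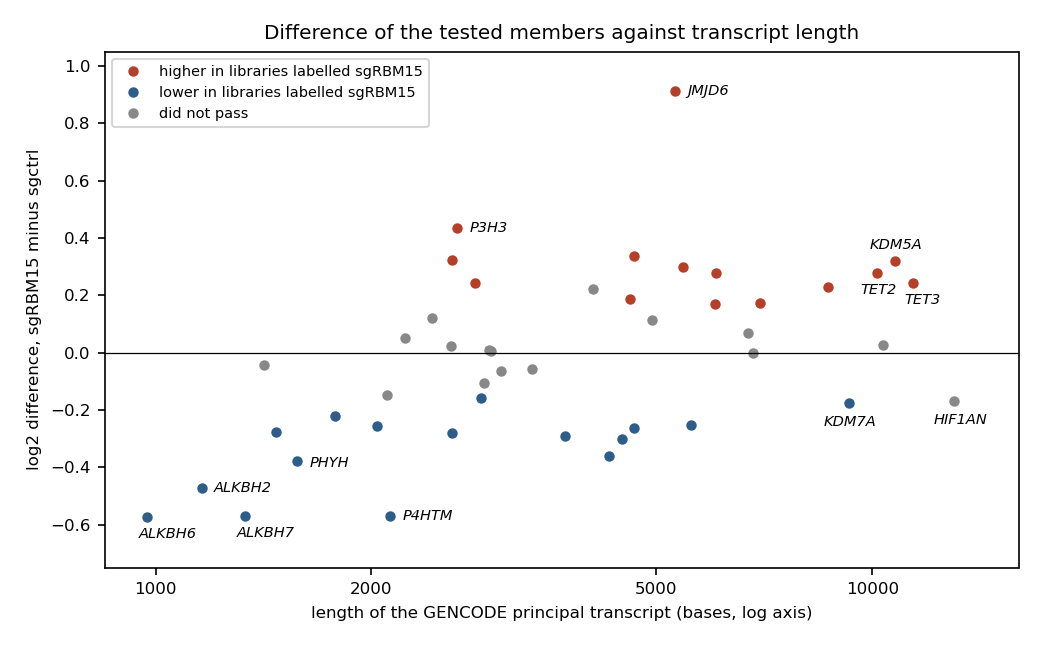
Log2 difference (vertical axis, sgRBM15 minus sgctrl) of the tested members against the length of the principal GENCODE transcript (horizontal log axis, bases), without JMJD7-PLA2G4B. The 4 shortest transcripts that fell (ALKBH6, ALKBH2, ALKBH7 and ALKBH3) lie at 973 to 1474 bases, and TET2, KDM5A and TET3, which rose, lie at 10166 to 11388 bases.

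Of 13 tested genes outside the rule that were listed as dioxygenases or their relatives, JARID2 included, 2 rose and 2 fell. That is 30.8% beside 54.5% of all tested genes. ASPH, an aspartyl hydroxylase of the endoplasmic reticulum, stood at 109, 110.1 and 110.0 FPKM in libraries labelled sgRBM15, against 94.0, 91.0 and 86.7 FPKM in sgctrl libraries, a log2 difference of 0.28 (SE 0.035, adjusted p = 0.000696). ALKBH5, an eraser of the m6A mark, rose by 0.31 (adjusted p = 0.000816). The tRNA hydroxylase gene TYW5 (-0.21) and the histone demethylase gene PHF2 (-0.13) fell. The PHF2 call was lost when any single library was left out (-0.15 to -0.10), and that of TYW5 when any was left out but sgRBM15 library 1 or sgctrl library 1 (-0.21 to -0.18). The oxygen-sensing prolyl hydroxylase genes EGLN1 (0.03), EGLN2 (-0.02) and EGLN3 (-0.01) did not pass.

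Of 8 tested genes that work with the collagen hydroxylases 5 rose and 1 fell, 75% beside 54.5% of all tested genes (25.3% higher and 29.2% lower). SERPINH1, the collagen chaperone, stood at 90.6, 89.9 and 93.7 FPKM in libraries labelled sgRBM15, against 52.7, 49.5 and 49.3 FPKM in sgctrl libraries, a log2 difference of 0.84 (SE 0.037, adjusted p = 1.03e-05). FKBP10, a prolyl isomerase needed for telopeptide lysyl hydroxylation, rose by 0.56 (SE 0.042). CRTAP, which forms a complex with P3H1, had a difference of -0.14 and fell, but was not called once sgRBM15 library 1 (-0.135) or sgctrl library 1 (-0.13) was left out. Collagen chains themselves were scarce: of 15 listed, 7 were in the table and 2 passed the filter, of which COL4A2 fell. COL4A2 averaged 2.80 ± 0.206 FPKM in libraries labelled sgRBM15 and 4.14 ± 0.255 FPKM in sgctrl libraries.

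Of 21 tested genes that make or remove 2-oxoglutarate or its competitors, 5 rose and 7 fell, 57.1% beside 54.5% of all tested genes. D2HGDH, the mitochondrial enzyme that clears D-2-hydroxyglutarate, another inhibitor of the class, stood at 7.62, 7.86 and 6.99 FPKM in libraries labelled sgRBM15, against 12.2, 12.8 and 15.1 FPKM in sgctrl libraries. The groups were far apart, with a log2 difference of -0.75 (SE 0.085, adjusted p = 0.000395). It was -0.54 after GC and length adjustment and passed under every alternative run. PSAT1, which yields 2-oxoglutarate during serine synthesis, fell by 0.79, and IDH1, which makes 2-oxoglutarate from isocitrate in the cytosol, fell by 0.56. The mitochondrial isocitrate dehydrogenase gene IDH2 fell too (-0.42, adjusted p = 0.000253). Other makers did not all fall: IDH3A, a catalytic subunit of the NAD-dependent enzyme, rose by 0.43 (SE 0.043, adjusted p = 0.00023). The subunits of that enzyme differed, since IDH3G fell (-0.23, adjusted p = 0.00254) and IDH3B did not pass (0.066). OGDH, whose enzyme consumes 2-oxoglutarate in the citric acid cycle, rose by 0.35 (SE 0.052, adjusted p = 0.00145). Among the other listed genes, GOT1 (-0.51) and SUCLG2 (-0.43) fell, and GOT2 (0.27) and SUCLG1 (0.12) rose. FH, the fumarate hydratase that removes fumarate, stood at 82.4, 79.6 and 79.8 FPKM in libraries labelled sgRBM15, against 72.6, 76.7 and 72.1 FPKM in sgctrl libraries. Its difference of 0.13 (SE 0.035, adjusted p = 0.0197) was 0.11 and not called without sgRBM15 library 1, sgctrl library 1 or sgctrl library 3.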

How the data were processed

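Per the labels' protocols, RNA was extracted with TRIzol and sequenced as paired 150 bp reads after VAHTS Universal V6 library preparation. The authors deposited FPKM, per the file headers. The submitters' processing notes name HISAT2 2.2.1, StringTie 2.0.4 and hg38; the sources used here give no settings, annotation, strand or row filter. Columns were matched to libraries by name.

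Genes averaging 1 FPKM or more entered limma 3.58.1 (R 4.3.3) on log2(FPKM + 1), a scale that understates the change of low genes, with a variance trend, 2 groups and Benjamini-Hochberg adjustment over 11451 genes. Values in every library, difference, SE and adjusted p are given for members that passed with an absolute log2 difference of at least 0.3 and no overlap, for the most abundant member of each role, and for the TET genes, KDM1A, KDM1B, HIF1AN, PHYH, RBM15 and FH; context lists gave up to 4 called genes with the largest difference, of which some are left out. Other values of members and the genes EGLN1, EGLN2, EGLN3, WDR6, STUB1, ABCB9, SNAP47, CRYBG3, ORAI2, VIL1, IDH2, IDH3A, OGDH and CRTAP were picked after their values were seen. The same holds for IDH3B, IDH3G, GOT2, SUCLG1, SUCLG2, PLA2G4B, KRT8, KRT18, CDX2 and CDH17. Members and lists were chosen with earlier results of these data known. In a simulation on 11384 genes the test called 40% of the 1.2-fold changes, 78% of the 1.5-fold changes, 94% of the 2-fold changes and 4 of 11184 genes without a change. Far fewer genes changed there than in the data, where 54.5% of all tested genes passed. The Benjamini-Hochberg adjustment was therefore stricter in the simulation, and its shares and false calls do not carry over to the data. Among values under 0.5 FPKM no more than 0.93% of between-library ratios shared a window 0.1% wide, and whole reads were therefore not recoverable. Coordinates, lengths and GC content are from GENCODE 29 (GRCh38), promoters from RefSeq. Alternatives were another pseudocount (0.1), filters, scalings, no variance trend, a replicate block, leaving out each library and, added after the data were seen, removal of a GC and length trend (splines with 4 degrees of freedom). Tables and plots were made with pandas 2.3.3, scipy 1.17.1, numpy 2.4.6 and matplotlib 3.10.9 under Python 3.11.15.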

Additional observations from a re-analysis of the deposited data

How the results depend on the processing

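The count of members that rose was 14 and lay between 11 and 16 under the other 14 alternatives. It was 9 after GC and length adjustment, an alternative chosen after seeing the data; the members that rose had long transcripts (median 5734.5 bases). Leaving out single libraries gave 11 to 14 members that rose and 11 to 16 that fell. Of the 30 members that passed, 17 passed under all 15 alternatives and 13 lost the call in at least 1, and of the 17 others 6 gained a call in at least 1. None of the 30 changed sign. FH lost its call without sgRBM15 library 1 (0.11), sgctrl library 1 (0.11) or sgctrl library 3 (0.11), and its difference lay between 0.109 and 0.153 when single libraries were left out. RBM15 lay between 1.45 and 1.51 when single libraries were left out. The share of higher calls over all genes was 46.4%, and 53.8% under quantile normalization, and the count of genes at least 2-fold apart was 186, 401 with a pseudocount of 0.1, 293 on a common library sum and 116 with a filter at a mean of 5 FPKM. The replicate numbers did not pair the libraries, since deviations of same-numbered libraries correlated at -0.037 to 0.000045. With the replicate number as a block 14 members rose and 14 fell, since KDM7A (adjusted p = 0.0617) and JMJD4 (adjusted p = 0.0929) did not pass, with RBM15 at 1.48 and FH at 0.13 (adjusted p = 0.0456). Depth is unknown, so what it limits at low levels could not be given.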
